A study of Mus musculus with 5 samples.

Results

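Notch pathway genes were followed in single mouse embryos from which Oct4, the pluripotency factor encoded by Pou5f1, had been deleted soon after implantation. The 10 genes were Notch1, Notch2, Notch3, Dll1, Dll3, Jag1, Jag2, Hes1, Hes6 and Rbpj. They were chosen by name, with earlier results of these data known. They are the rows of the read count table that carry these symbols, 10 of 49671 genes in all. All 10 passed the filter on low counts and were tested.

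RNA was sequenced by SmartSeq2, a full-length cDNA method for small inputs, from 2 control embryos (SO+) and 3 mutant embryos (SO-) of a mixed strain background, collected at about E6.75. SO+ embryos lacked the Sox2Cre transgene and were Oct4 fl/+, and SO- embryos were Sox2Cre+/- and Oct4 fl/-, so every embryo carried a floxed Oct4 allele and the SO- embryos had a null allele besides. Each library held the epiblast and visceral endoderm (VE) of 1 embryo after the extra-embryonic ectoderm was removed. The Sox2 promoter drives Cre mainly in the epiblast, so VE cells in an SO- sample could keep their floxed allele.

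The Notch pathway passes signals between touching cells. A ligand of the Delta-like (Dll) or Jagged (Jag) family on the sending cell binds a Notch receptor, proteases release the intracellular domain of the receptor, and that domain enters the nucleus, where it joins the DNA-binding protein Rbpj and a Mastermind-like (Maml) coactivator. Hes and Hey genes, which encode basic helix-loop-helix repressors, are the usual targets, and the pathway is best known in the embryo for somite formation, neurogenesis and vessel formation, which follow the stage studied here.

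Total counts were between 27047148 and 27538119 in the SO+ embryos and between 1117566 and 4191498 in the SO- embryos, so depth cannot be told apart from genotype, nor can the second sequencing index, which also differed between them. Levels are given as CPM, counts scaled to a common library total after TMM adjustment, and 3 counts were worth between 0.108 and 0.111 CPM in SO+ embryos but between 0.721 and 2.67 CPM in SO- embryos. Pou5f1 was at 916 and 435 CPM in the SO+ embryos and between 12.4 and 44.0 CPM in the SO- embryos. Summed over 8 epiblast markers, the level was between 4878 and 5664 CPM in SO+ and between 2459 and 3546 CPM in SO-. Of the 8, 3 were called lower, as were 0.928% of all tested genes. In every SO- embryo 5 were lower than in both SO+ embryos, as were 15.1% of all tested genes. The other way, 2 had a log2 fold change (SO- over SO+) above 0. Just 1 was higher in every SO- embryo than in both SO+ embryos, as were 14.3% of all tested genes. The sum over 14 VE markers overlapped between genotypes, between 3207 and 5086 CPM over the 5 embryos. Yet 12 of the 14 had a log2 fold change above 0, with a median of 0.38, and none was called. The sum over 10 markers of extra-embryonic ectoderm was between 117 and 149.7 CPM in SO+ and between 171 and 222.3 CPM in SO-. Of the 10, 7 were tested, 5 with a log2 fold change above 0 and 2 below. Among these, 1 was called higher, as were 1.42% of all tested genes. In these bulk samples, fewer cells of a type and less RNA per cell cannot be told apart, and the part of these differences in the values below was not tested.

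With edgeR's quasi-likelihood test, none of the 10 genes reached an adjusted p under 0.05, against 2.35% of the 12067 genes tested. At an unadjusted p under 0.05 there were 2, Hes1 and Hes6, where 13.7% of all tested genes stood, and DESeq2 called 1, Hes1, where it called 3.26% of all genes. Limma-voom called 0 of the 10. In 4 of the 10 genes the CPM values of the genotypes did not overlap, Hes1 and Notch3 being higher in every SO- embryo and Notch1 and Hes6 lower, while 29.3% of all tested genes were without overlap. The log2 fold change (SO- over SO+) was above 0 for 3 genes and below 0 for 7. Its median was -0.17, against -0.00 for all tested genes. That median became 0.17 with the replicate number as a block, and 0.06 and 0.10 without SO+ embryo 2 and SO- embryo 3. With the SO+ libraries thinned it was 0.04, but over 9 genes, since Jag2, below 0 in the main test, gave no value there. The p-values measure the spread between these 5 embryos alone.

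**Figure D1:**
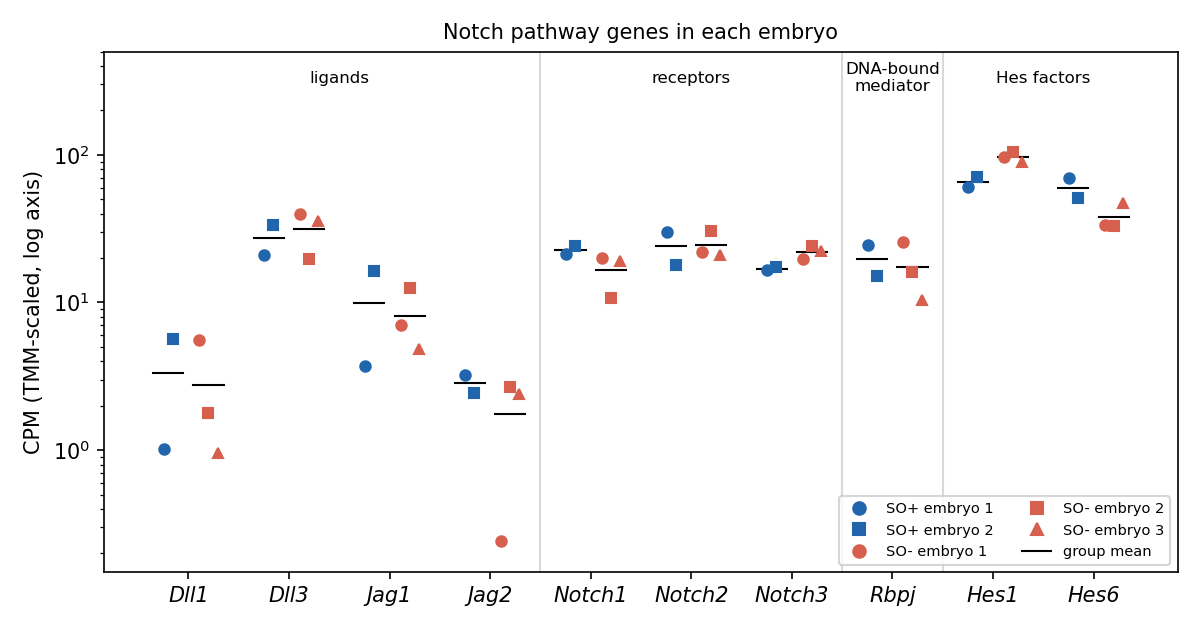
CPM of each of the 10 genes in each embryo, on a log axis, with SO+ embryos in blue, SO- embryos in red and horizontal lines for the genotype means. Hes1 and Notch3 lie higher in all 3 SO- embryos than in both SO+ embryos, Notch1 and Hes6 lie lower, and the other 6 genes overlap.

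Per length of exon, as CPM per kilobase (RPKM), Hes1, Hes6 and the ligand Dll3 stood above the receptors in every embryo. Mean RPKM over the 5 embryos was 41.4 for Hes1, 25.8 for Hes6 and 10.5 for Dll3. It was 2.47 for Notch3, 2.25 for Notch2, 1.52 for Jag1, 1.43 for Rbpj and 1.34 for Notch1, and the lowest means were 0.709 for Dll1 and 0.316 for Jag2. Neighbours in this order were often not separated. Notch3 lay above Notch2, and Notch2 above Jag1, in 4 of 5 embryos, and Jag1 lay above Rbpj, Rbpj above Notch1 and Dll1 above Jag2 in 3 of 5. Hes6 lay above Dll3, Dll3 above Notch3 and Notch1 above Dll1 in 5 of 5, whereas Hes1 lay above Hes6 in 4 of 5, the exception being SO+ embryo 1.

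The promoter windows below belong to Notch3 and Hes6, which were among the 4 genes without overlap between genotypes and whose windows hold no annotated exon. RefSeq starts on GRCm38.p6 matched 9 of the 10 genes, at 12 starts, and Hes1 was not matched. Each window is the 250 bases before a start on the minus strand, written 5′ to 3′ along the gene, and capitals mark an N box (CACNAG on either strand), a sequence that Hes repressors can bind.
Notch3, chr17:32166891-32167140: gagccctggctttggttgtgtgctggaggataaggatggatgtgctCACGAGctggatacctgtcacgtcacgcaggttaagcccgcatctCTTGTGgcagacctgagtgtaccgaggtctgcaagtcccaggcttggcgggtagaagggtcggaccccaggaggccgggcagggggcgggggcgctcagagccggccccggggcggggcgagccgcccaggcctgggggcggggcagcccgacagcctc
Hes6, chr1:91413223-91413472: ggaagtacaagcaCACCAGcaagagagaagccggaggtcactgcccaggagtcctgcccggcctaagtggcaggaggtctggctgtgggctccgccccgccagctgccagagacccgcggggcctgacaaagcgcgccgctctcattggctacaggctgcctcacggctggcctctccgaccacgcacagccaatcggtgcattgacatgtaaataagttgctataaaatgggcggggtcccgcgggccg
Hes6, chr1:91414039-91414288: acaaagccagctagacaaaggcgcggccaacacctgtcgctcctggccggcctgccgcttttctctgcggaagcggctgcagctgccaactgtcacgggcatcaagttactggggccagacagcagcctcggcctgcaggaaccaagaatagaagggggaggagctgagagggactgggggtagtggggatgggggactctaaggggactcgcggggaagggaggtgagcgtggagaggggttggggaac

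The Notch3 window held 2 N boxes, 204 and 159 bases before the start, and the first Hes6 window held 1, 237 bases before its start, while the second held none. Of the 9 matched genes, 4 (Notch1, Notch2, Notch3 and Hes6) had an N box. These were at 4 of the 12 starts, where 36.7% of 32851 windows of this length hold one. The RBPJ core TGGGAA was found for 1 gene, Rbpj itself, at 2 of the 12 starts, against 21.6% of windows. These 2 windows, chr5:53590096-53590345 and chr5:53590236-53590485, overlap, so they are not separate finds. They hold 132 and 250 annotated exon bases. The octamer ATGCAAAT, which Oct4 and its relatives can bind, was found at 1 start, of Dll1, against 1.60% of windows. All 250 bases of that Dll1 window are annotated exon, and the window of the other Dll1 start held no octamer. Matches are of letters alone and were searched on both strands.

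Among the ligands, the comparison gave no call, and the genotypes overlapped for all 4. Dll3, a ligand that acts mainly inside the cell that makes it and dampens its Notch signal (ENSMUSG00000003436, chr7:28293553-28302238), was at 20.9 and 33.5 CPM in SO+ embryos 1 and 2 and at 39.8, 19.6 and 35.6 CPM in SO- embryos 1, 2 and 3. SO- embryo 2 was the lowest of the 5 and SO- embryo 1 the highest. The means were 27.2 ± 8.89 (SD, n = 2) and 31.6 ± 10.7 CPM (SD, n = 3), which is a log2 fold change of 0.29 with a 95% interval from -0.30 to 0.88 (edgeR adjusted p = 0.737).

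Dll1, a ligand of presomitic mesoderm and early neural cells (ENSMUSG00000014773, chr17:15367354-15376872), was at 1.01 and 5.62 CPM in SO+ and at 5.58, 1.78 and 0.961 CPM in SO-. The value in SO- embryo 2 rested on 2 reads and that in SO- embryo 3 on 4. Embryos of 1 genotype thus differed by more than the genotypes did, with means of 3.32 ± 3.26 (SD, n = 2) and 2.77 ± 2.47 CPM (SD, n = 3). This gave a log2 fold change of -0.16, with a 95% interval from -1.92 to 1.60 (edgeR adjusted p = 0.969).

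Jag1, a ligand used in vessels, heart and inner ear (ENSMUSG00000027276, chr2:137081456-137116644), was at 3.72 and 16.2 CPM in SO+ and at 7.04, 12.4 and 4.81 CPM in SO-. The 2 SO+ embryos were the lowest and the highest of the 5. The log2 fold change was -0.44, with a 95% interval from -1.69 to 0.81 (edgeR adjusted p = 0.832). SO+ embryo 2 was highest for both Jag1 and Dll1. Its summed level over 8 markers of primitive streak and nascent mesoderm was 671 CPM, against 454 to 579.8 CPM in the other 4. Single markers did not all follow, and T was at 35.5 CPM in SO+ embryo 2, below 3 of the other 4. SO- embryo 1 was nearly as high for Dll1, at 5.58 CPM, and had a summed marker level of 545 CPM. The part of these levels in the ligand values was not tested.

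Jag2, the gene with the lowest mean RPKM of the 10 (ENSMUSG00000002799, chr12:112907819-112929776), was at 3.25 and 2.44 CPM in SO+ and at 0.243, 2.67 and 2.40 CPM in SO-. These SO- values rested on 1, 3 and 10 reads, and the 95% Poisson interval of SO- embryo 1 reached up to 1.35 CPM and overlapped those of SO- embryos 2 and 3. For Jag2 the log2 fold change was -0.86, with a 95% interval from -2.51 to 0.80 (edgeR adjusted p = 0.711). It was -0.20 without SO- embryo 1, -1.61 without SO- embryo 3 and -1.66 with the replicate number as a block, and was called in none of these. Dll4, the ligand of vessel tips, had 0 reads in all 5 embryos.

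Dll3 was the main ligand transcript of every embryo, at 84.5% and 72.4% of the summed RPKM of Dll1, Dll3, Dll4, Jag1 and Jag2 in SO+ and at 84.5%, 70.0% and 89.9% in SO-. Jag1 was second in 4 of the 5, with between 5.94% and 21.8% over all embryos, while in SO- embryo 1 Dll1, at 8.00%, lay just above Jag1, at 7.31%. The shares overlapped between genotypes.

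**Figure D2:**
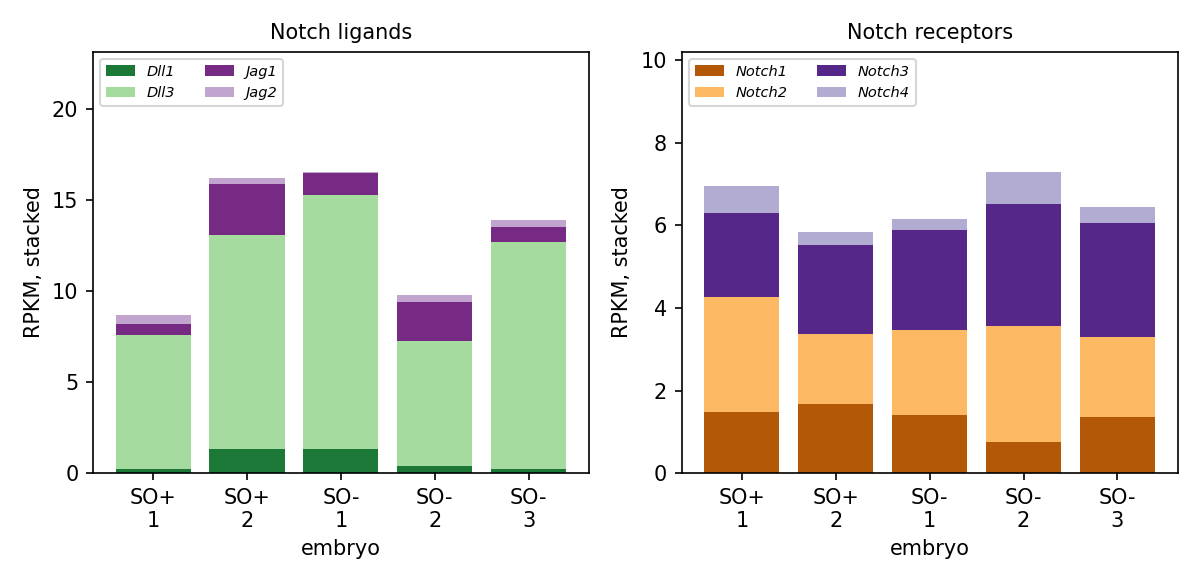
Stacked RPKM of the Notch receptors and of the ligands in each embryo, a level per kilobase of exon. Dll3 takes between 70.0% and 89.9% of the ligand sum, and the receptor sum stays between 5.83 and 7.29 RPKM in all 5 embryos.

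Among the receptors, the summed level lay between 5.83 and 7.29 RPKM over the 5 embryos. Notch1, the receptor that segmentation depends on (ENSMUSG00000026923, chr2:26457903-26516663), was at 21.2 and 24.0 CPM in SO+ and at 20.1, 10.7 and 19.2 CPM in SO-. Every SO- embryo was lower, SO- embryos 1 and 3 only slightly and SO- embryo 2, with 12 reads, the most. Its log2 fold change was -0.36, with a 95% interval from -0.92 to 0.20 (edgeR adjusted p = 0.624).

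Notch3, the receptor best known from smooth muscle of arteries (ENSMUSG00000038146, chr17:32120820-32166852), stood the other way. It was at 16.5 and 17.4 CPM in SO+ and at 19.7, 24.0 and 22.3 CPM in SO-, with means of 17.0 ± 0.637 (SD, n = 2) and 22.0 ± 2.19 CPM (SD, n = 3). All 3 SO- embryos were higher, yet the log2 fold change of 0.36 had a 95% interval from -0.15 to 0.86 (edgeR adjusted p = 0.572). Notch3 lies 3.34 Mb from Pou5f1 on chromosome 17, and Dll1 lies 20.1 Mb from it, so alleles linked to the Oct4 locus in this mixed background cannot be told apart from the genotype.

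Notch2, a widely expressed receptor (ENSMUSG00000027878, chr3:98013527-98150361), was at 30.0 and 18.0 CPM in SO+ and at 22.1, 30.2 and 20.9 CPM in SO-. Its means were nearly equal, at 24.0 ± 8.43 (SD, n = 2) and 24.4 ± 5.08 CPM (SD, n = 3). The log2 fold change was -0.03, with a 95% interval from -0.61 to 0.55 (edgeR adjusted p = 0.986). Notch4, the receptor of endothelium, was between 2.18 and 6.22 CPM over the 5 embryos and overlapped between genotypes (log2 fold change -0.20, edgeR adjusted p = 0.941).

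Set against each other within an embryo, which needs no scaling between libraries, Notch3 had 0.779 and 0.725 times the reads of Notch1 in SO+ and 0.976, 2.25 and 1.16 times in SO-. The direction follows from the lack of overlap of both genes, described above, and adds nothing to it. Per length of exon the same ratios were 1.37 and 1.27 in SO+ and 1.72, 3.96 and 2.05 in SO-, so Notch3 lay above Notch1 in all 5 embryos. No test was made of the ratio, and 2 embryos against 3 could not reach a p under 0.05 by exact permutation.

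Rbpj, the DNA-binding partner of every Notch receptor (ENSMUSG00000039191, chr5:53466152-53657362), was at 24.5 and 15.1 CPM in SO+ and at 25.5, 16.0 and 10.3 CPM in SO-. Each genotype had a high and a low embryo. For Rbpj the log2 fold change was -0.18, with a 95% interval from -0.93 to 0.57 (edgeR adjusted p = 0.901).

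Hes1, a repressor that Notch commonly induces and that other signals also control (ENSMUSG00000022528, chr16:30064384-30067796), had the lowest p of the 10 genes. It was at 60.7 and 70.6 CPM in SO+ embryos 1 and 2 and at 96.9, 104 and 89.6 CPM in SO- embryos 1, 2 and 3. All 3 SO- embryos lay above both SO+ embryos, as they did for 14.3% of all tested genes. The means were 65.6 ± 6.98 (SD, n = 2) and 96.8 ± 7.21 CPM (SD, n = 3), which is a log2 fold change of 0.55 (SE 0.14) with a 95% interval from 0.24 to 0.86. This did not pass the threshold in edgeR's quasi-likelihood test (adjusted p = 0.0668), where Hes1 ranked 359 of 12067 genes, and it passed in DESeq2 (adjusted p = 0.0372). It also passed in edgeR without SO+ embryo 2 (adjusted p = 0.0385), and with the other embryos left out one at a time the adjusted p reached 0.382.

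Hes6, a relative that opposes Hes1 and promotes neuronal differentiation (ENSMUSG00000067071, chr1:91411483-91414038), lay in the opposite direction. It was at 69.2 and 50.8 CPM in SO+ and at 33.3, 32.9 and 47.1 CPM in SO-. Every SO- embryo was lower, as for 15.1% of all tested genes, but SO- embryo 3 came within a few CPM of SO+ embryo 2. The means were 60.0 ± 13.0 (SD, n = 2) and 37.8 ± 8.09 CPM (SD, n = 3), which is a log2 fold change of -0.64 (SE 0.20) with a 95% interval from -1.09 to -0.20. It did not pass in edgeR's quasi-likelihood test (adjusted p = 0.152) or in DESeq2 (adjusted p = 0.157), and it passed in edgeR without SO+ embryo 2 (adjusted p = 0.0231).

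Within each embryo, Hes1 had 0.877 and 1.39 times the reads of Hes6 in SO+ and 2.91, 3.16 and 1.90 times in SO-. Here too the direction follows from the lack of overlap of the 2 genes and is not a further result. Per length of exon it was 0.778 and 1.23 in SO+ and 2.58, 2.81 and 1.69 in SO-. SO+ embryo 1 was the only embryo with more Hes6 than Hes1.

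**Figure D3:**
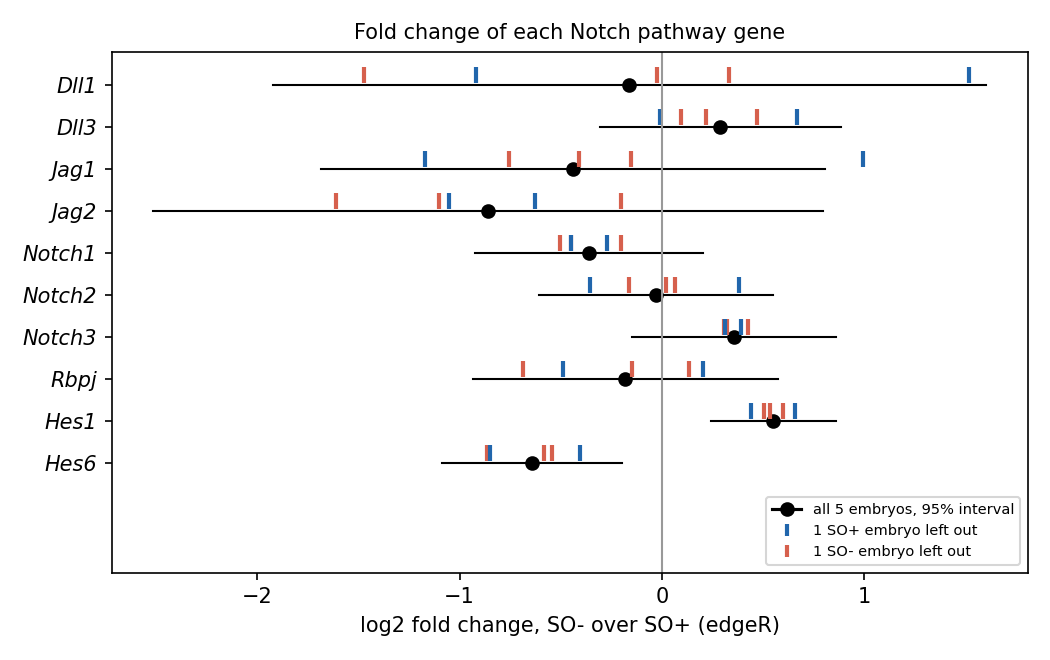
Log2 fold change of each gene, SO- over SO+, from edgeR with all 5 embryos (black points, with 95% intervals) and with 1 embryo left out (blue ticks without an SO+ embryo, red ticks without an SO- embryo). The intervals of Hes1, from 0.24 to 0.86, and Hes6, from -1.09 to -0.20, leave out 0, and those of the other 8 genes hold it.

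Other Hes and Hey genes were scarce. Hey1, a target in many tissues, was between 6.49 and 11.9 CPM (log2 fold change 0.20, edgeR adjusted p = 0.901), and Nrarp, a target that feeds back on the pathway, between 3.69 and 6.25 CPM (log2 fold change 0.22, edgeR adjusted p = 0.915). Hes5, a Notch target of neural progenitors, was not tested in the main fit because it failed the filter. With no filter on low counts it was not called. It had 71 and 25 reads in SO+ and 0, 0 and 2 reads in SO-, where the mean SO+ level would have given 7.19, 1.96 and 7.26 reads. Hey2 had 0 reads in both SO+ embryos and 0, 1 and 9 in SO-, and Heyl had 0 reads in all 5. At these depths a difference in Hes5 or Hey2 could not be measured with useful precision.

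A wider list of 66 pathway genes, sorted by role, put the 10 genes among their partners. Of its genes 56 were tested, 1 was called higher in SO- (1.42% of all tested genes were) and 1 lower (0.928% were). The log2 fold change was above 0 for 28 and below 0 for 28, with a median of 0.01, and the genotypes did not overlap for 10 genes that were higher and 10 that were lower, where 14.3% and 15.1% of all tested genes were.

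Maml3, a coactivator that joins the Notch intracellular domain and Rbpj, was at 7.37 and 8.99 CPM in SO+ and at 30.3, 23.1 and 17.5 CPM in SO-. It rose in SO-, with means of 8.18 ± 1.14 (SD, n = 2) and 23.7 ± 6.42 CPM (SD, n = 3) and a log2 fold change of 1.54 (SE 0.30, edgeR adjusted p = 0.0172). Even the lowest SO- embryo lay well above the higher SO+ embryo. The call was lost without SO- embryo 1 (log2 fold change 1.26, adjusted p = 0.236), without SO- embryo 2 (1.55, adjusted p = 0.166) and in limma-voom (1.51, adjusted p = 0.0611), and DESeq2 kept it (adjusted p = 0.000594). Its relatives Maml1 and Maml2, with log2 fold changes of 0.70 and 1.35, were not called (edgeR adjusted p = 0.563 and 0.452).

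Dtx1, a Deltex ubiquitin ligase that binds the receptor's intracellular domain and is itself a Notch target in some cells, was at 40.0 and 25.8 CPM in SO+ and at 9.95, 4.45 and 17.1 CPM in SO-. It fell in SO-, with means of 32.9 ± 10.1 (SD, n = 2) and 10.5 ± 6.32 CPM (SD, n = 3) and a log2 fold change of -1.49 (SE 0.34, edgeR adjusted p = 0.0388). The value in SO- embryo 2 rested on 5 reads. The call was lost without SO+ embryo 1 (log2 fold change -1.16, adjusted p = 0.143), SO- embryo 1 (-1.38, adjusted p = 0.338) or SO- embryo 2 (-1.29, adjusted p = 0.251) and in limma-voom (-1.47, adjusted p = 0.313), and DESeq2 kept it (adjusted p = 0.00598). Dtx2, Dtx3 and Dtx4 were not called, with log2 fold changes of -0.36, -0.25 and -0.05.

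**Figure D4:**
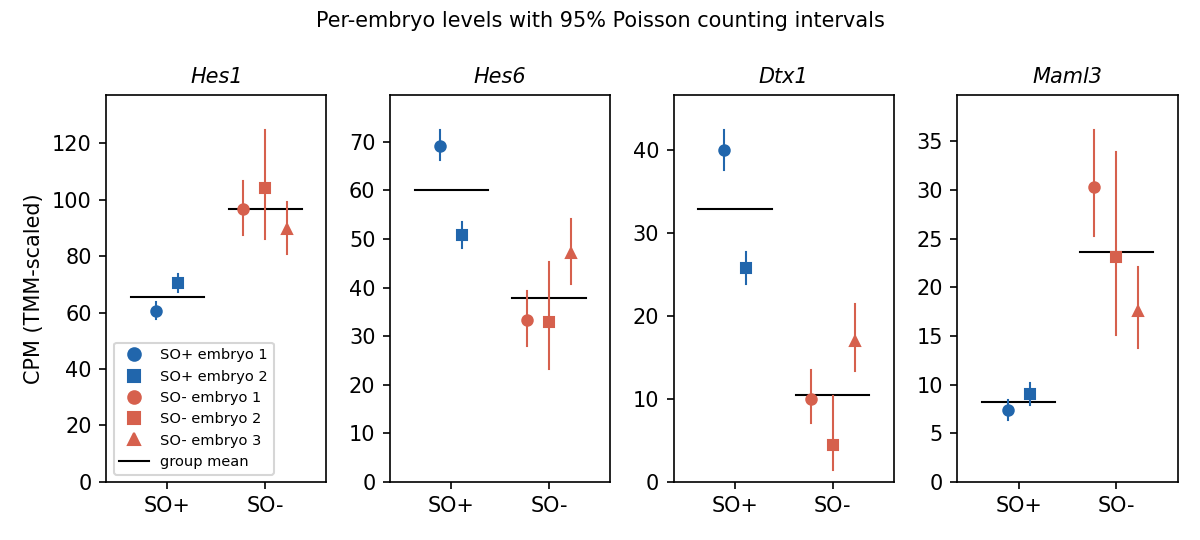
CPM per embryo of Hes1, Hes6, Dtx1 and Maml3, with points for embryos, vertical lines for 95% Poisson intervals of the counts (counting error only) and horizontal lines for the genotype mean. Maml3 is between 17.5 and 30.3 CPM in SO- against 7.37 and 8.99 CPM in SO+, and Dtx1 is between 4.45 and 17.1 against 25.8 and 40.0 CPM.

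No gene of the other roles was called. Of the 10 proteases, which cut the receptor or mature it, 8 had a log2 fold change above 0, from Aph1c at 1.57 (edgeR adjusted p = 0.341) to Aph1b at -0.72 (edgeR adjusted p = 0.714), with a median of 0.29. Aph1b and Aph1c are close copies, so the division of reads between them is uncertain. All 5 glycosyltransferases, which add the sugars that tune how receptors bind ligands, had a log2 fold change at or below 0, from Mfng at -1.09 (edgeR adjusted p = 0.221) to Rfng at -0.00, with a median of -0.29. Lfng, the fringe enzyme of segmentation, was between 1.20 and 3.07 CPM (log2 fold change -0.12, edgeR adjusted p = 0.975).

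Among the ligands of the wider list the highest log2 fold change was that of Dlk1, a Delta-like protein without the usual receptor-binding domain, at 0.65 (edgeR adjusted p = 0.657). Among the genes of endocytosis and turnover it was that of Mib1, the ligase that activates ligands, at 0.26 (edgeR adjusted p = 0.582). Of 17 tested genes of the nuclear complex, 10 were above 0 and 7 below, with a median of 0.02.

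**Figure D5:**
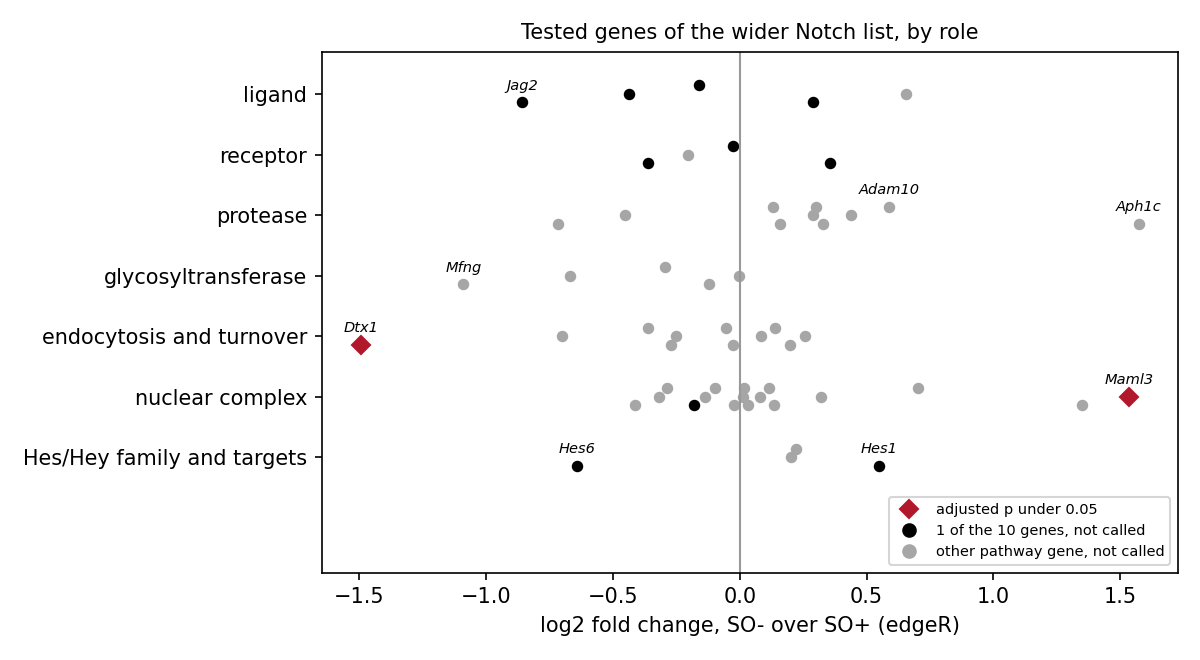
Log2 fold change, SO- over SO+, of the 56 tested genes of the wider list by role, 1 point a gene, with red diamonds for the 2 called genes and black points for members of the 10. Points lie evenly about 0, with 28 on each side, and Dtx1 at -1.49 and Maml3 at 1.54 stand near the ends.

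Trp53inp2 and Phldb2 were among the genes whose pattern over the 5 embryos was most like that of Hes1. Likeness was the Euclidean distance between log2(CPM + 1) values centred on each gene's mean, taken over 9304 genes whose mean log2 CPM was 3 or more, and the distances were 0.0333 and 0.0357. Their log2 fold changes were 0.55 and 0.56, and neither was called (edgeR adjusted p = 0.221 and 0.175). The nearest of the other 9 genes was Notch3, at 0.318.

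Reads of overlapping genes could add little to these values. Genes on the opposite strand that share exon bases with Notch1, Notch3 or Dll1 had between 0 and 3 reads in any embryo, and Gm42820, on the same strand as Notch2, had 13 and 15 reads in SO+ and 0 in SO-.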

How the data were processed

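The 5 libraries were of polyadenylated RNA amplified by SmartSeq2. Whole-number counts per gene were deposited by the authors without normalization, from reads placed on GRCm38 (mm10) by STAR and assigned to genes by HTSeq. Use of strand and removal of duplicates are not given in the sources used here. Any PCR copies left in the data are counted as reads, so floors cover counting error only. Positions and exon lengths came from GENCODE on GRCm38.

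Counts were analysed in R 4.3.3 with edgeR 4.0.16 (quasi-likelihood F test, TMM and filterByExpr, no covariate), adjusted by Benjamini-Hochberg over 12067 genes and a threshold of 0.05. RPKM is scaled CPM per kilobase of merged exons. On simulated counts, edgeR called 36 of 64 genes changed by 1 on the log2 scale and 13 of 11588 unchanged ones. Genes named are the 10, the called genes of the wider list, the highest and lowest of each role, fixed relatives and targets, and the 3 most like Hes1, of which some are not reported here. Maml1, Maml2, Dtx2, Dtx3, Dtx4 and T were added after their values were seen. Members and lists were chosen with earlier results of these data known. Alternatives were DESeq2 1.42.0, limma-voom (limma 3.58.1), other scalings and filters, thinning, the replicate number as a block and each embryo left out.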

Additional observations from a re-analysis of the deposited data

How the results depend on the processing

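The fold changes of Notch1, Notch3, Jag2, Hes1 and Hes6 kept their sign under every alternative that gave a value. Thinning gave none for Jag2.

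The count of the 10 genes called was 0, and it became 1 with DESeq2 (Hes1), 2 with the replicate number as a block (Hes1 and Hes6) and 0 to 2 with an embryo left out. The count of called genes in the wider list, 2, became 0 with limma-voom, 5 with the replicate block and 0 to 4 with an embryo left out. Over all genes, 283 calls became 91 with limma-voom, 929 with the replicate block and 35 to 573 with an embryo left out. Hes1 passed with DESeq2 at a log2 fold change of 0.55 and with the block at 0.62 (edgeR adjusted p = 0.00705), as did Hes6 with the block at -0.89 (edgeR adjusted p = 0.00192). With an embryo left out, Hes1 ranged from 0.44 to 0.66 and Hes6 from -0.86 to -0.41.

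Signs that turned were those of Notch2 (0.0733 with the block, 0.0415 with thinning, -0.35 to 0.38 with an embryo left out), Dll1 (0.0267 with limma-voom, 0.895 with the block, 0.0576 with thinning, -1.47 to 1.52 with an embryo left out), Jag1 (0.31 with the block, -1.17 to 1.00 with an embryo left out), Rbpj (0.0672 with the block, -0.69 to 0.20 with an embryo left out) and Dll3 (-0.00929 to 0.67 with an embryo left out). Among these, the sign turned without SO+ embryo 1 for Notch2 (0.38), Rbpj (0.20) and Dll3 (-0.00929), without SO+ embryo 2 for Dll1 (1.52) and Jag1 (1.00), without SO- embryo 1 for Notch2 (0.02), and without SO- embryo 3 for Notch2 (0.06), Dll1 (0.33) and Rbpj (0.13). The cause was not tested. None of these was called in any setting.

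Same-numbered embryos share only a number. The deviations from the genotype means correlated at -0.01 for number 1 and 0.12 for number 2 over 12067 genes, and SO- embryo 3 has no partner. Embryos of different number correlated at -0.147 to 0.147. With 2 SO+ embryos, their deviations mirror each other, so these values are tied and cannot decide whether embryos were paired.

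Depth limits the genes with few reads, since 3 counts were worth 2.67 CPM in SO- embryo 2.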
